A study of Mus musculus with 2 samples.

Results

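The complement and coagulation factors are plasma proteins that the liver secretes, and their transcripts were examined here in liver RNA of mice lacking apolipoprotein E. The set holds 38 genes, taken by symbol: 14 complement components, 13 clotting factors and 11 inhibitors and fibrinolytic proteins. Of these, 35 had at least 1 probe set annotated with that symbol alone, 45 probe sets in all, out of 7137 genes measured on the arrays. C3 and Cpb2 had no such probe set and are not analysed here. C4b was reported only together with C4a, by a shared probe set.

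Male mice, 2 months of age, on a C57BL/6J background, apolipoprotein E-deficient in both groups, received a semipurified Western diet for 11 weeks, either alone or with 0.01% oleanolic acid, a plant triterpenoid, at 10 mg per kg per day. RNA of each group was pooled and hybridized to 1 Affymetrix array, so each value below rests on n = 1 array per diet, without replication, and no test was made. How many mice went into a pool, and at what hour livers were taken, is not given in the sources used here. The livers had been washed to remove blood, per the labels. The question was which liver transcripts differ when oleanolic acid is added to the diet.

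Complement is a cascade of proteases that is started by antibody, by lectins that bind microbial sugars or by spontaneous C3 activation, and that ends in a membrane pore. Coagulation is a second protease cascade, in which thrombin turns fibrinogen into fibrin. Both are held in check by serpins and by dedicated cofactors and proteases, plasmin dissolves fibrin, and hepatocytes make most of these proteins.

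Signals are MAS5 intensities in linear units, and a log2 ratio is oleanolic acid over Western diet, averaged over the probe sets of a gene. The error beside a ratio is the probe set SD. With several measured probe sets per gene it is the SD between their ratios. With 1 it is the SD between probe sets pooled over all genes of like signal: 0.13 for the brightest of 4 bands, where 32 of the 35 genes lay, and 0.17 for the band below it, with F11, Pros1 and Masp1. It covers differences between probe sets on the same pair of arrays. Error shared by a whole array, from labelling, hybridization or scaling, is not in it, nor is variation between mice.

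The 35 genes differed little between the arrays. Log2 ratios ran from -0.34 for C2 to 0.27 for Fga, with a median of 0.04 and an SD over genes of 0.12. None of the 35 was above 0.5, against 2.63% of all measured genes and 1.74% of the 1784 genes of the brightest band. None was below -0.5 either, against 3.24% and 1.01%. The submitters' threshold of 1.5 in either direction was passed by 0 of 35, by 0.392% of all measured genes and by 0.168% of the brightest band. With so low a background, a count of 0 in 35 is near it and is no result about these genes. A ratio larger in size than the gene's own probe set SD was found in 9 of 35 (5 above 0, 4 below 0), against 40.5% of all measured genes and 43.6% of the brightest band.

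**Figure D1:**
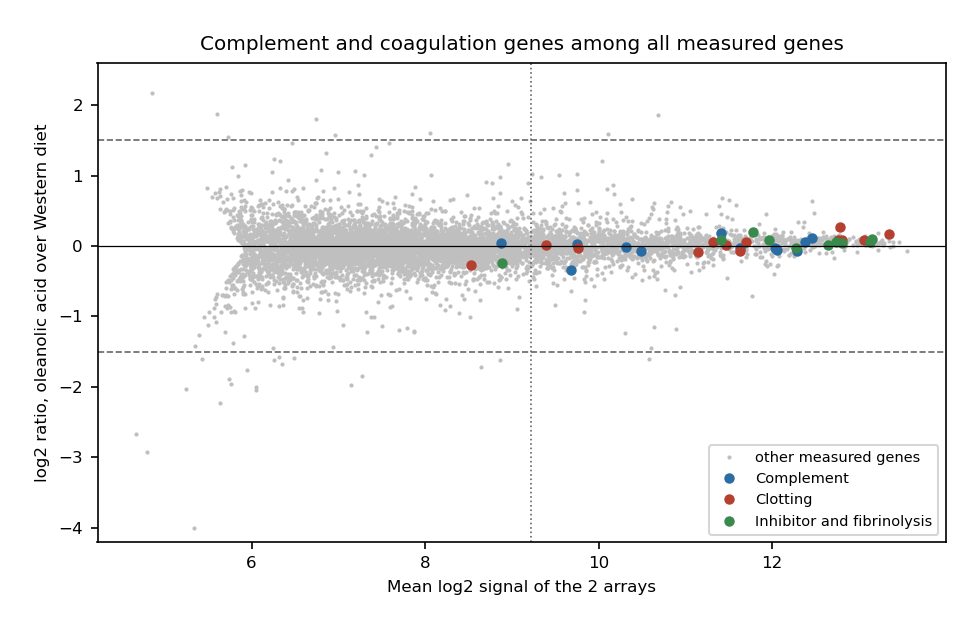
Each point is 1 of 7137 measured genes, placed by the mean of its log2 signals on the 2 arrays (x axis) and its log2 ratio, oleanolic acid over Western diet (y axis). Dashed lines mark 1.5 and -1.5, the dotted line the lower edge of the brightest signal band. The 35 complement and coagulation genes (coloured) lie between -0.34 and 0.27, and 32 of them are right of the dotted line.

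Direction was divided. Of the 35 genes, 22 had a log2 ratio above 0, or 62.9%, where 50.2% of all measured genes and 58.2% of the brightest band were above 0. This direction depended on the scaling of the arrays: after quantile normalization or intensity-dependent centring, 17 of 35 were above 0, and the medians were 0 and -0.0053. With the same 2 settings, 52.2% and 52.0% of all measured genes were above 0. The SD over the 32 members of the brightest band was 0.11, against 0.21 for the 1752 other genes of that band. The interval from -0.34 to 0.34, whose width was set by C2 after its value was seen, held 92.9% of the genes of the brightest band.

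Among the proteins that start the lectin pathway, the lectin gene Mbl1 had the highest and C2 the lowest ratio of the complement set. Mbl1, a lectin that binds microbial sugars, read 2556 with the Western diet and 2911 with oleanolic acid (log2 ratio 0.19, probe set SD 0.13). Its paralog Mbl2 had 5205 and 5434 (log2 ratio 0.06). Both were higher in the oleanolic acid array, Mbl1 by more than its probe set SD and Mbl2 by less. C2, the protease subunit of the convertase shared by the classical and lectin pathways, read 926 and 732, for a log2 ratio of -0.34 (probe set SD 0.13). This difference of -20.9% was the largest difference among the 35 genes. Masp2, the lectin-associated protease that cleaves C4 and C2, had probe set signals of 1023 and 1128, and of 709 and 675, so its probe sets lay on both sides of 0 (mean log2 ratio 0.03, SD 0.15, n = 2 probe sets). The probe set shared by C4a and C4b had 5081 and 5403 (log2 ratio 0.09), and the paralogs cannot be told apart by it.

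Masp1 had the least settled value. This gene encodes a lectin pathway protease and, by alternative splicing, related proteins. Its probe sets gave signals of 1208 and 988 (log2 ratio -0.29), 697 and 742 (0.09), 445 and 546 (0.30), and 121 and 128 (0.09). Their mean was 0.05 with an SD of 0.24 (n = 4 probe sets), so no direction can be given for the gene. The brightest probe set alone put Masp1 at -0.29. A further probe set, at 17.0 and 14.3, was too dim to count as measured. Which transcripts each probe set reads was not determined here.

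The terminal components and the alternative pathway protease were nearly level. Hc, which encodes C5, had signals of 4331 and 4164 (log2 ratio -0.06). C6 had 1279 and 1264 (-0.02), and C9, which polymerizes to form the pore, had 4235 and 4154 (-0.03). The subunits of C8 did not share a direction: C8a had 5113 and 4864 (-0.07), C8b 1474 and 1402 (-0.07), and C8g, the lipocalin subunit, 5393 and 5859 (0.12). Thus 5 of 6 terminal components had ratios below 0, each by less than the probe set SD of 0.13, and C8g lay above 0 by less than it. In the brightest band, which holds all 6, 58.2% of genes were above 0 and the median absolute log2 ratio was 0.09. Whether so short a list departs from this was not tested. Cfb, the protease of the alternative pathway convertase, had 3209.9 and 3148 (-0.03).

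**Figure D2:**
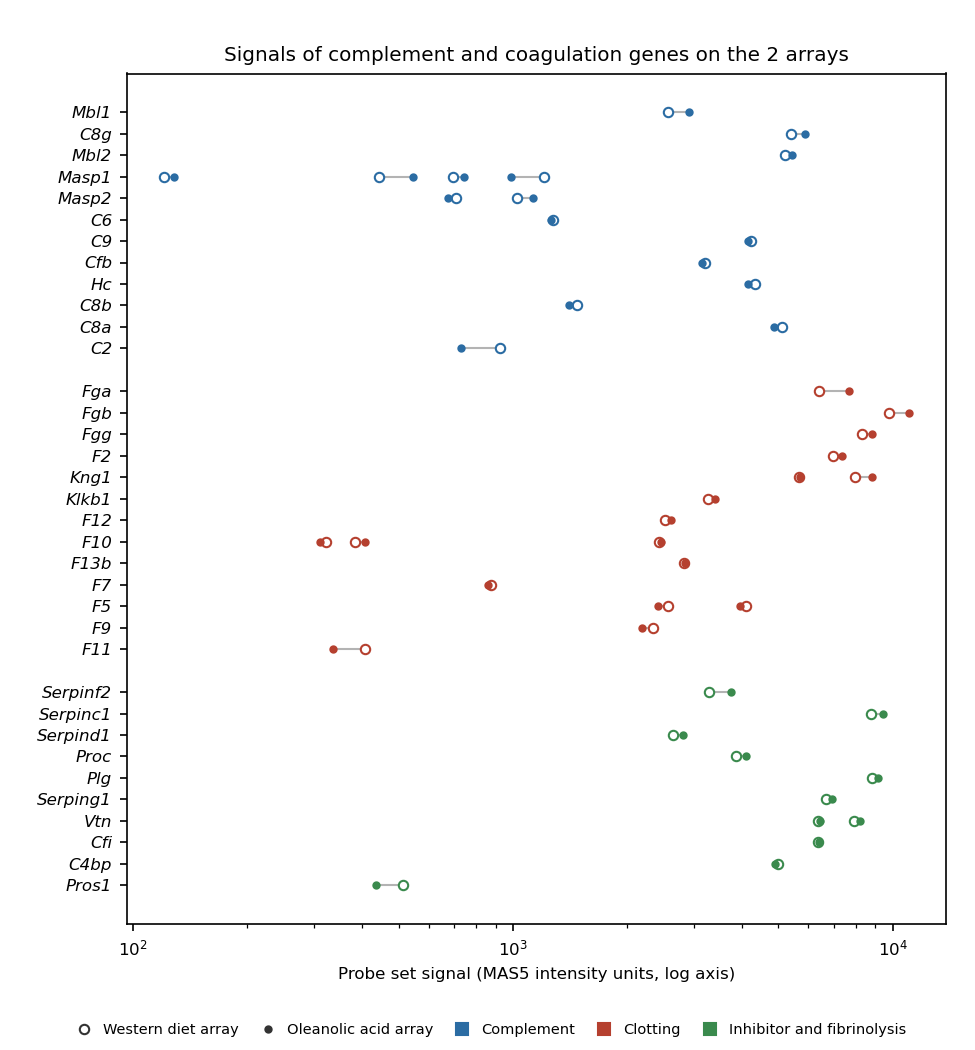
Signals of each measured probe set on the Western diet array (open circles) and the oleanolic acid array (filled circles), on a log axis in MAS5 intensity units, with genes grouped by class and ordered by log2 ratio within it. The pairs lie close together in nearly every row; the widest gaps are those of C2, F11, Fga and some probe sets of Masp1. Signals of different probe sets are not comparable with each other.

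The vitamin K-dependent clotting zymogens and their cofactor also stayed near 0. F2, prothrombin, had signals of 6950.3 and 7353 (log2 ratio 0.08). F7, the zymogen that tissue factor activates, had 874 and 861 (-0.02), and F9, the factor lacking in haemophilia B, had 2334 and 2193 (-0.09). F10, the zymogen of the prothrombin-cleaving protease, had probe set signals of 2429 and 2459.8, of 384 and 407, and of 322 and 311 (mean log2 ratio 0.02, SD 0.07, n = 3 probe sets). Both probe sets of F5, the cofactor of activated factor X, were slightly lower with oleanolic acid: 4115 and 3958 for one and 2560 and 2408 for the other (mean log2 ratio -0.07, SD 0.02, n = 2 probe sets).

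In the contact system, F11 had the lowest ratio and the other 3 genes lay slightly above 0. F11, which activates factor IX, read 407 and 337, for a log2 ratio of -0.27 (probe set SD 0.17) or a difference of -17.3%. F12, whose protein starts the contact system, had 2513 and 2611 (log2 ratio 0.06), and Klkb1, plasma prekallikrein, had 3266 and 3404 (0.06). Kng1, the kininogen that carries prekallikrein and factor XI, had probe set signals of 7949 and 8826, and of 5671 and 5705 (mean log2 ratio 0.08, SD 0.10, n = 2 probe sets). Whether the Kng1 probe sets also read its paralog Kng2 was not determined.

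The fibrinogen chains all had higher signals in the oleanolic acid array. Fga, the alpha chain, had 6401 and 7694, for a log2 ratio of 0.27 (probe set SD 0.13), which is 20.2% higher. Fgb, the beta chain, had 9789 and 11007 (log2 ratio 0.17, probe set SD 0.13), and Fgg, the gamma chain, had 8305 and 8818 (log2 ratio 0.09), less than its probe set SD. The chains are assembled in equal numbers into one protein, and their genes form a cluster on mouse chromosome 3. With quantile normalization the 3 ratios were 0.20, 0.12 and 0.03, and with intensity-dependent centring 0.21, 0.10 and 0.02. F13b, the carrier subunit of the fibrin-crosslinking factor XIII, had 2821 and 2844 (log2 ratio 0.01).

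The 3 fibrinogen genes lie side by side and their ratios, seen before this choice, share a sign. In the brightest band 58.2% of genes were above 0, so a sign shared by 3 genes is no result about them. The RefSeq promoter windows of these genes (GRCm38.p6) are shown here, printed in the direction of transcription. They run from 250 bases before to 50 after the annotated start. They are chr3:83025903-83026202 on the plus strand for Fga, chr3:83049814-83050113 on the minus strand for Fgb and chr3:83007474-83007773 on the plus strand for Fgg. Capitals mark matches on either strand to 3 of the 6 motifs searched: TTCNNNGAA (STAT3-like), TTGNNCAA (C/EBP-like) and GTTAAT (HNF1-like), the last found here only as its reverse complement.
Fga: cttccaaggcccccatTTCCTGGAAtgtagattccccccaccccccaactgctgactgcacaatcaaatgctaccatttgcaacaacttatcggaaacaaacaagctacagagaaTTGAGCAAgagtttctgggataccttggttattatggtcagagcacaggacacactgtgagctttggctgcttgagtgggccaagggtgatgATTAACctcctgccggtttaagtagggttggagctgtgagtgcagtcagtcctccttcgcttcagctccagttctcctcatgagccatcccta
Fgb: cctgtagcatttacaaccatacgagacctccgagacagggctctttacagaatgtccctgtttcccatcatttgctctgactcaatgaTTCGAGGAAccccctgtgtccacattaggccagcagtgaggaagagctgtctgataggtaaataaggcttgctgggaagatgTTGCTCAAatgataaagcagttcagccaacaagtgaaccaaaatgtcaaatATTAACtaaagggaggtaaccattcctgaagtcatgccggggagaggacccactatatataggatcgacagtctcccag
Fgg: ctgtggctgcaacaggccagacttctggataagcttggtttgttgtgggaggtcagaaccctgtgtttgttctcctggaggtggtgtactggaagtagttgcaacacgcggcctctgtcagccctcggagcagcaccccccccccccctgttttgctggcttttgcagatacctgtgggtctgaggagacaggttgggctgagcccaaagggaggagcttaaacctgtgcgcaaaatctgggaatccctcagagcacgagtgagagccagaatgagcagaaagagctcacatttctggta

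Fga and Fgb each held 1 match of each of these motifs, and Fgg, whose ratio was also above 0, held none in this window. Matches also lay in windows of genes with ratios below 0, among them F9 (log2 ratio -0.09) with a STAT3-like and a C/EBP-like match and Pros1 (-0.24) with a STAT3-like match. A C/EBP-like match was held by F11 (-0.27) and by C8g (0.12). The windows of Serpinf2 (0.20) and Mbl1 (0.19), which had high ratios, held no match to any of the 6 motifs. In Fga the STAT3-like match began at -234, the C/EBP-like match at -135 and the HNF1-like match at -43 relative to the start. In Fgb they began at -162, -80 and -29. Of the 38 genes, 29 had a window in the table, 30 windows in all. The STAT3-like motif was in 7 of them (23.3%), against 8.30% of the 32851 windows of the table, the C/EBP-like motif in 6 (20.0% against 6.40%) and the HNF1-like motif in 9 (30.0% against 7.10%). TTGCGCAA, a stricter form that TTGNNCAA includes, was in 0 of the 30 windows and 0.183% of all windows. The E-box CACGTG (7.15% of all windows) and the D-box TTATGTAA (0.938%), the element of the clock output factors Dbp, Tef and Hlf, were each in 0 of the 30. These are letter matches in a short window and not measured binding sites.

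**Figure D3:**
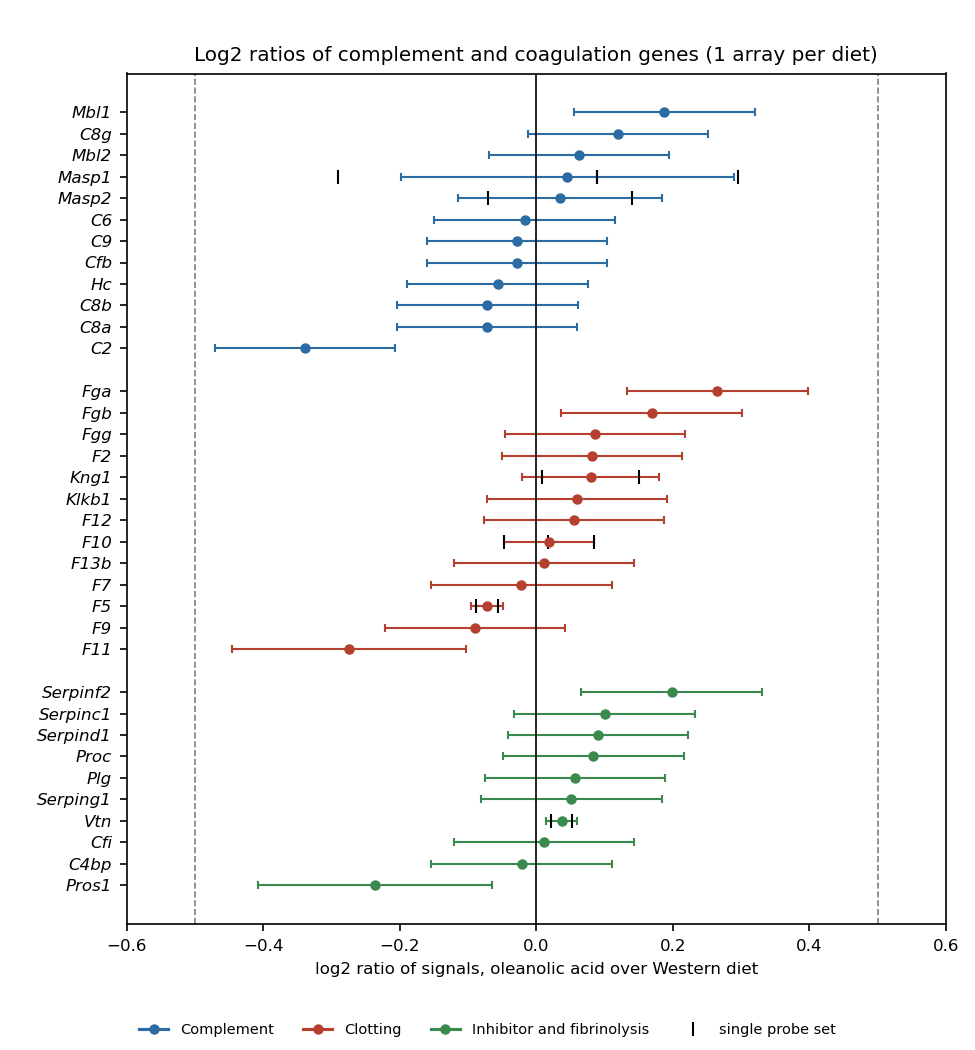
Log2 ratio of signals, oleanolic acid over Western diet (x axis), for the 35 genes (y axis) in 3 classes. Points are gene means, bars the probe set SD, vertical ticks the single probe sets of genes with several, and dashed lines 0.5 and -0.5. All 35 points lie inside the dashed lines; C2, F11 and Pros1 are the lowest and Fga, Serpinf2 and Mbl1 the highest.

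Anticoagulant genes had ratios near 0.1 apart from Pros1. Serpinc1, antithrombin, had signals of 8784 and 9416 (log2 ratio 0.10), and Serpind1, heparin cofactor II, had 2637 and 2807 (0.09). Proc, the zymogen of the protease that cleaves activated factors V and VIII, had 3878 and 4109 (0.08). These 3 were higher with oleanolic acid by less than the probe set SD of 0.13. Pros1, protein S, the cofactor of activated protein C, had 515 and 437, for a log2 ratio of -0.24 (probe set SD 0.17) or a difference of -15.1%. Pros1 and Proc, partners in one reaction, thus had ratios of opposite sign.

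Of the fibrinolytic genes, Serpinf2 had a higher ratio than Plg. Plg, plasminogen, had signals of 8806 and 9157 (log2 ratio 0.06). Serpinf2, alpha-2-antiplasmin, which inhibits plasmin, had 3277 and 3760.4 (log2 ratio 0.20, probe set SD 0.13), or 14.7% higher in the oleanolic acid array. The complement regulators were flat. Cfi, the protease that inactivates C3b and C4b, had 6366 and 6416 (0.01), and C4bp, its cofactor for C4b, had 4977 and 4904 (-0.02). Serping1, the inhibitor of C1 and of contact system proteases, had 6682 and 6925 (0.05). Vtn, vitronectin, which binds the terminal complex, had probe set signals of 6339.5 and 6434, and of 7904 and 8197 (mean log2 ratio 0.04, SD 0.02, n = 2 probe sets). Quantile normalization turned the sign of Cfi, F13b, Serping1 and Vtn, and intensity-dependent centring turned these and that of Plg.

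By class, the median log2 ratio was -0.02 for 12 complement genes, 0.06 for 13 clotting genes and 0.05 for 10 inhibitor and fibrinolysis genes. Above 0 were 5 of 12, 9 of 13 and 8 of 10, beside the background shares of 50.2% and 58.2%. Complement lay 0.08 below each of the other classes. With 1 array per diet this difference has no error and was not tested, and the ranges of the classes overlapped throughout (-0.34 to 0.19, -0.27 to 0.27 and -0.24 to 0.20). Complement had the lowest median in all 9 alternative settings of the signals, but several of these moved the members little or not at all. The inhibitor median was -0.0041 after quantile normalization and -0.0071 after intensity-dependent centring. With Cfi, C4bp, Vtn and Serping1 counted as complement, the medians were -0.0029, 0.06 and 0.09.

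Across the 35 genes the log2 ratio was related to signal, with a Pearson correlation of 0.60 and a Spearman correlation of 0.55 between the mean log2 signal and the ratio. F11 and Pros1, which lay below the brightest band, had low ratios. Masp1 lay there only by the mean of its probe sets, with a mean ratio near 0. Its brightest probe set read 1208 and 988, with a log2 ratio of -0.29. Within the 32 genes of the brightest band the Pearson correlation was 0.50. The 35 points come from the same pair of arrays and are not replicates. Over all 1784 genes of the brightest band it was 0.10. In the 35 genes the Pearson correlation was lower, 0.42 after intensity-dependent centring and 0.43 after quantile normalization. It was higher, 0.68, when each gene was read by its brightest probe set, and 0.69 when _x_at and _s_at sets were dropped. The remaining alternative settings left it at 0.60.

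A list of 61 further genes of both cascades, with receptors, cell surface regulators and the enzymes of vitamin K-dependent modification, had 30 measured members. Their median log2 ratio was 0.03, none was above 0.5 and 1 was below -0.5, against 2.63% and 3.24% of all measured genes. That gene was C3ar1, the receptor of the C3a peptide, which was dim at 63.5 and 44.6 (-0.51 on the log2 scale, probe set SD 0.27), and it was at -0.10 with the floor raised to the array medians. Procr, the endothelial protein C receptor, had 91.1 and 70.3 (-0.37, probe set SD 0.27). Ggcx, the carboxylase that modifies vitamin K-dependent factors, had 192 and 244 (0.34, probe set SD 0.25). Tfpi2, an inhibitor of serine proteases, had 1204 and 1469 (0.29, probe set SD 0.13). Lman1, the cargo receptor for factors V and VIII, read 935 and 781, or -0.26 on the log2 scale (SD 0.05, n = 3 probe sets). Next by size were C1s1 (-0.18), a protease of the C1 complex, Habp2 (0.16), a protease that can activate factor VII, and Tfpi (-0.14), the inhibitor of the tissue factor pathway.

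Transcription factors and signalling genes known to act on liver promoters had an SD over genes of 0.45, against 0.28 over all measured genes. This list was chosen with earlier results of these data known, so its spread is no finding. Spread also depends on signal: the SD over genes was 0.20 in the brightest band and 0.40 in the dimmest. Of 21 measured regulators, 10 of them in the brightest band, 2 were above 0.5 and 2 below -0.5, beside 2.63% and 3.24% of all measured genes. Dbp read 1936 and 825 (-1.23 on the log2 scale, SD 0.06, n = 2 probe sets) and Tef 411 and 219 (-0.91, SD 0.17, n = 2 probe sets). Nr0b2, the repressor induced by the bile acid receptor, had 598 and 1007 (0.75, probe set SD 0.13), and Socs3, the feedback inhibitor of interleukin-6 signalling, 124 and 187 (0.60, SD 0.23, n = 3 probe sets). Hnf4a, a hepatocyte factor, was at 0.22 (SD 0.33, n = 4 probe sets), Cebpa at 0.0090, Cebpb at -0.29, Stat3 at 0.11 and Il6ra, the interleukin-6 receptor, at -0.41.

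The set was compared with other secreted liver proteins by their counts and medians. Among 23 acute phase genes, which share inducers with fibrinogen and Cfb, the median was 0.05, none was above 0.5 and 3 were below -0.5: Saa2 (2148 and 1400, log2 ratio -0.62), Orm2 (-0.57) and Lcn2 (-0.55). Below -0.5 were 3.24% of all measured genes and 1.01% of the brightest band, where 20 of the 23 lay. In the same list Hp, haptoglobin (0.07), and Hpx, hemopexin (0.06), were near 0. Among 15 apolipoprotein and lipoprotein enzyme genes, 0 passed 0.5 in either direction, 14 were above 0 and the median was 0.07. Of these, 14 lay in the brightest band, where 1.74% of genes were above 0.5, 1.01% below -0.5 and 58.2% above 0, so that 0 of 15 past 0.5 is the background value. Their direction was not recounted after quantile normalization or intensity-dependent centring, which turned the sign of bright members such as Vtn and Serping1. The SD over genes was 0.12 for the complement and coagulation set, 0.26 for the acute phase list and 0.05 for the apolipoprotein list.

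**Figure D4:**
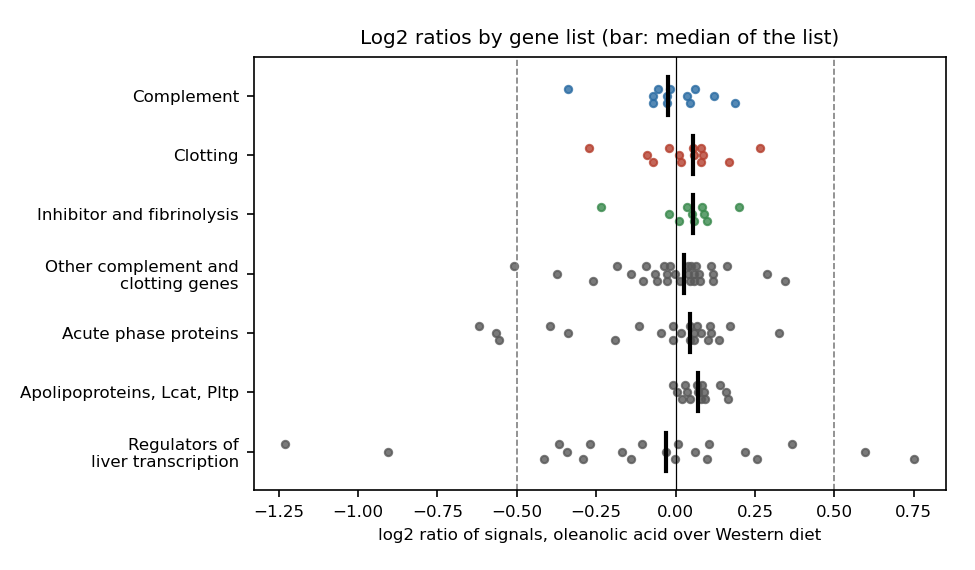
Log2 ratio, oleanolic acid over Western diet (x axis), of each gene in 3 classes of complement and coagulation genes (coloured) and 4 other lists (grey). Black bars are list medians and dashed lines 0.5 and -0.5. Genes beyond the dashed lines occur among other complement and clotting genes (1), acute phase proteins (3) and regulators (4).

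The labelled tissue was checked by hepatocyte markers: 9 of 14 had a named probe set, with signals of 8540 and 8950.3 for Alb and 9840.4 and 10071 for Ttr, and 0 of 9 passed 0.5 (summed signal 73838 with the Western diet and 75898 with oleanolic acid). Summed signals in this paragraph take each gene's highest probe set signal on each array. They include genes too dim to count as measured, which the counts leave out. Some markers of other cells had far lower signals in the oleanolic acid array. Exocrine pancreas markers were below -0.5 in 8 of 8 measured genes (summed signal 1024 and 306), and B and plasma cell markers in 2 of 2 (1069 and 236). Of all measured genes 3.24% were. The 8 pancreas genes were in the dimmest band, with gene signals of 66.6 to 155.8 and of 18.7 to 51.6, as was Jchain (133.9 and 43.8). On the oleanolic acid array they fell below the median of 59.3, so they counted as measured mainly through the Western diet array. These counts are thus partly set by the filter. Ighm (281 and 71.6) had an SD of 1.31 (n = 3 probe sets). Of the Kupffer cell and macrophage markers, 1 of 12 was below -0.5 (19048 and 17654), against the same 3.24%. The median log2 ratio of these 12 was -0.13, with a range from -0.67 to 0.11, against a median of 0.0012 over all measured genes. The macrophage products C1qa (-0.03), C1qb (-0.0034) and C1qc (0.11), which form the recognition unit of C1, lay at the upper end of this list. Endothelial and platelet markers had 0 of 10 past 0.5 (3471 and 3444) and erythroid markers 0 of 1 (409.5 and 388, summed over 3 genes). Of the stellate cell markers, 1 of 6 was above 0.5 (6759.7 and 6599), against 2.63% of all measured genes. That gene was Lrat, dim at 48.1 and 75.9. In lists this short, a count of 0 or 1 is no result about the cell type. No marker was listed at 0. In RNA of whole liver, fewer cells of a type and less RNA per cell cannot be told apart, and the part of such differences in the values above was not tested.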

How the data were processed

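The deposited table holds linear probe set intensities made by the authors with MAS5, per the submitters' processing notes; no version or genome build is named in those sources. The trimmed mean of each array (2% from each end) was 300.1, computed from the table, and the arrays were not scaled again. Detection calls were not used here. Groups came from the sample titles. Of 22690 probe sets, 64 controls were left out; 20380 carried 1 gene symbol in the platform annotation, 691 several and 1555 none, and only the first kind entered. All 35 genes with a probe set matched a RefSeq gene identifier.

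Signals were raised to the 25th percentile of their array (10.7 with the Western diet, 10.1 with oleanolic acid) and put on a log2 scale. Probe sets counted as measured when either signal reached its array's median (61.5 and 59.3). This kept 11642 probe sets, and 44 of the 45 of the complement and coagulation genes. Signal bands are 4 equal groups of the measured genes by mean signal; probe set SDs were pooled over 2427 genes with several probe sets. Named genes were all the members, the 8 genes with the largest absolute ratio of the further pathway list and, chosen after their values were seen, single genes of the regulator and acute phase lists. Members and lists were chosen with earlier results of these data known. The threshold of 0.5 also followed earlier results. The steps were tested on simulated data. Python 3.11.15, pandas 2.3.3 and statsmodels 0.14.6 were used. The number of arrays limits the precision.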

Additional observations from a re-analysis of the deposited data

How the results depend on the processing

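Alternative settings, 9 in all, were run: a floor at the array median, a pseudocount of 16 in place of the floor, no filter on dim probe sets, a filter on both arrays, the brightest probe set alone, no probe sets ending in _x_at and _s_at, quantile normalization, intensity-dependent centring and centring on the median. In all 9 settings 0 of 35 genes were above 0.5, below -0.5 or past 1.5. The floor at the array median and the filter on both arrays moved no member. Centring on the median moved each by 0.0026, and the pseudocount by at most 0.011. The settings on the choice of probe sets could move only the 6 members with several measured probe sets. Such settings are thus little or no check on the counts or on single members. The median of the set ranged from -0.0053 to 0.05, so its sign is not settled. With Cfi, C4bp, Vtn and Serping1 counted as complement as a further setting, the complement median ranged from -0.04 to -0.0029, the clotting median from 0.02 to 0.06 and the inhibitor median from -0.0071 to 0.09, so the sign of the last is not settled either. Of 315 values for single members, 310 moved by less than the gene's own probe set SD. The other 5 were Masp1 (-0.29 with its brightest probe set and without _x_at and _s_at sets), Vtn (-0.02 after quantile normalization or intensity-dependent centring) and F5 (-0.11 after the latter); the cause was not tested. Genes outside the set were added to these runs after seeing the data. Of these, the settings moved C3ar1 (-0.10 with the higher floor), Tef (-0.66) and Lman1 (-0.38, both without a filter). No paired analysis was possible because each diet has 1 array, and for the same reason no array could be left out. Without a replicate, differences of the size seen here cannot be set against variation between mice.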
